A study of Mus musculus with 20 samples.

Results

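5-formylcytosine (5fC) peaks of the E11.5 mouse heart were compared between *Tdg* null and wild-type (WT) embryos. The comparison used the 4 heart libraries of the 20 libraries in the series, 2 *Tdg* null and 2 WT, and held 387969 autosomal peaks. All 20 libraries hold 1497348 peaks on all chromosomes. In *Tdg* null embryos both alleles carried a neomycin cassette where the catalytic part of the gene would stand. They came from intercrosses of heterozygotes, as did the WT embryos. Each library was a pull-down of 5fC-bearing DNA fragments from the dissected heart of 1 embryo. The study states that each WT sample had a *Tdg* null partner from its own litter. The titles of the heart libraries name embryos and no litter, so the pairs used here were assigned. *Tdg* null 1 was taken with WT 1, and *Tdg* null 2 with WT 2. These pairs are called litters below, and whether they are litter mates was not checked. The carcass libraries of the same 4 embryos, and 8 hindbrain libraries of other embryos, served for comparison. The allele is constitutive, so every cell type of the heart carried it, and a peak of a DNA mark names no cell type. More cells with 5fC at a locus and more 5fC per cell cannot be told apart in a whole dissected heart. Peaks do not read the sequence of the *Tdg* locus, so the genotype labels were not checked here.

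5fC arises when TET enzymes oxidise the methyl group of 5-methylcytosine in steps, through 5-hydroxymethylcytosine. TDG, thymine DNA glycosylase, cuts 5fC out of DNA, and base excision repair then puts an unmodified cytosine in its place. Loss of TDG is known to let 5fC accumulate. At E11.5 the heart is a looped tube of beating cardiomyocytes, lined by endocardium, with cushions that later form valves.

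The 2 genotypes differed above all in how much of the genome lay under peaks. *Tdg* null 1 had 251271 autosomal peaks and *Tdg* null 2 had 125399, against 5881 in WT 1 and 5418 in WT 2. These peaks covered 205.65 Mb and 92.7 Mb in the *Tdg* null hearts, and 2.95 Mb and 2.89 Mb in the WT hearts. Of the ungapped autosomes, 8.59% and 3.87% lay under *Tdg* null peaks and 0.123% and 0.121% under WT peaks. Covered length was 69.8-fold higher in the null heart in the first litter and 32.04-fold higher in the second, a mean log2 ratio of 5.56 ± 0.79 (SD, n = 2 pairs). Both null libraries lay above both WT libraries. The exact permutation test, two-sided, gave p = 0.333, which is the smallest p that 2 against 2 can give. The files hold intervals with no score and no reads, so the depth behind a peak is unknown.

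Overlap between libraries of 1 genotype is given as shares, which grow with the size of the maps and are not compared between genotypes. Of the peaks of *Tdg* null 2, 92.2% shared at least 1 base with a peak of *Tdg* null 1, and 44.1% of the peaks of *Tdg* null 1 did so the other way. Of WT 1 peaks 15.5% met a peak of WT 2, and of WT 2 peaks 16.9% met a peak of WT 1. The median peak was 700 and 600 bp long in the null hearts and 400 and 500 bp in the WT hearts.

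Stretches under peaks of all 4 libraries, of both WT and neither null, and of both null and neither WT were listed by length. There were 362 stretches in all 4 libraries (179.4 kb in total), 413 in both WT only (292.3 kb) and 116154 in both null only (85847.2 kb). The sequences below show the 3 classes, up to 3 windows each, from the longest stretches whose central window met no exon and could be printed. Per 100 bases the median stretch held 2.6 CpGs in the class of all 4 libraries, 1.33 in the WT-only class and 1.5 in every 20th stretch of the null-only class. Each is 200 bases from the centre of a stretch, on the plus strand of NCBIM37 (mm9), with every CpG in capitals. From the stretches in all 4 libraries these lie in *Dot1l* outside its exons (chr10:80254600-80254799), and in introns of *Arid3a* (chr10:79399700-79399899) and of *Zfpm1* (chr8:124854000-124854199; the model *Gm20388* overlaps it), which encodes the GATA cofactor FOG1.
*Dot1l*: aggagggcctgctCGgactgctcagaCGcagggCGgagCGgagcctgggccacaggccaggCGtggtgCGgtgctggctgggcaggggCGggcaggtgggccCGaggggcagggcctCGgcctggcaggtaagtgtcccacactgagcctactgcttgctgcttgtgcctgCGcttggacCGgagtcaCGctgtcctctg
*Arid3a* intron: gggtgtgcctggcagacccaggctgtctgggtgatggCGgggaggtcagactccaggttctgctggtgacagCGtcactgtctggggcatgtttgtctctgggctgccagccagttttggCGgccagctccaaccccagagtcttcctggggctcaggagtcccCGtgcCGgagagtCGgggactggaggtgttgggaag
*Zfpm1* intron: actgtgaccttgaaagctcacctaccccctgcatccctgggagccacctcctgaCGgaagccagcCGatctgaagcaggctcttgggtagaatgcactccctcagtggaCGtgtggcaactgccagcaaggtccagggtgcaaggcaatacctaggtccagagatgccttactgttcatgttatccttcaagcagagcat

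From the stretches in both WT hearts and neither null heart, these lie between genes, at chr13:74666950-74667149, 45.4 kb from *Zfp825*, at chr14:20454150-20454349, 31.2 kb from *Gm5458*, and at chr4:3017600-3017799, 80.4 kb from *Vmn1r2*.
chr13, WT only: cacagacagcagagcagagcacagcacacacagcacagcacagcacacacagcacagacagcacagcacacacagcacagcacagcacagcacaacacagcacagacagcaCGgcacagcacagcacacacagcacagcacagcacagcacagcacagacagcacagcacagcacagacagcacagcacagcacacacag
chr14, WT only: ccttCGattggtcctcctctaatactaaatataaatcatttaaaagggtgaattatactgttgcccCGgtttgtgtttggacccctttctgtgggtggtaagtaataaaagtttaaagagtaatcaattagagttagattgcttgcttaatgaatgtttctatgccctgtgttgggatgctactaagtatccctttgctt
chr4, WT only: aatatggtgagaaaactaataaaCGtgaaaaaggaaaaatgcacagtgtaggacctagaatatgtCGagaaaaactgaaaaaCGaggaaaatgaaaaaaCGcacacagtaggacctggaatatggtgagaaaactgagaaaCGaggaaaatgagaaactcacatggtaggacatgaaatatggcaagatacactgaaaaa
These WT-only stretches are so named for the heart alone. The chr13 stretch lay wholly under peaks in all 8 hindbrain libraries, *Tdg* null and WT, and the chr4 stretch over 2000 to 2200 of its 2200 bp in all 8. The chr14 stretch had bases in 2 of 4 null and 1 of 4 WT hindbrain libraries. None of the 3 had a base in a carcass or liver library of either genotype.

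From the longest stretches in both null hearts and neither WT heart, these lie in introns. The genes are *Smad6* (chr9:63819700-63819899), an inhibitor of BMP signalling, *D19Wsu162e* (chr19:46694100-46694299) and *Mtss1* (chr15:58818550-58818749), which encodes an actin-binding protein. The null-only stretches too are so named for the heart alone. In that order, they had bases under peaks in 1, 4 and 1 WT libraries of other tissues, and in 4, 7 and 3 null libraries of other tissues.
*Smad6* intron, null only: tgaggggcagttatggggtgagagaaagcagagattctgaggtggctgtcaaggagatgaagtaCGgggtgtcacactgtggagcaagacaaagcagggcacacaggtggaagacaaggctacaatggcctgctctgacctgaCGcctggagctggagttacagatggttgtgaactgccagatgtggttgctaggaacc
*D19Wsu162e* intron, null only: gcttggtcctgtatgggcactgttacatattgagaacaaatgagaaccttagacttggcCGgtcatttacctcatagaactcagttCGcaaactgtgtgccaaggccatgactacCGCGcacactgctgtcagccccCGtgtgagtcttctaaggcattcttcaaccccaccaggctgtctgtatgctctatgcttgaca
*Mtss1* intron, null only: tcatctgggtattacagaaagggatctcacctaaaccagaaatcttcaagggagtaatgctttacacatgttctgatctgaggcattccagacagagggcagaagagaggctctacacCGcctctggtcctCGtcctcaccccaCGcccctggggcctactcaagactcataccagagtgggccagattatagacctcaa

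The 9 windows held 12, 6 and 3 CpGs (all 4 libraries), 1, 2 and 5 CpGs (WT only) and 2, 5 and 3 CpGs (null only), in the order printed, so single windows of the classes overlapped in their CpGs. The central 32 bases occurred 6 times on the autosomes for the chr14 window and 1 time for the other windows. The chr13 window is nonetheless a run of short, near-identical units, which an exact match of its central 32 bases does not count as repeated. The 2500 bp stretch around the chr13 window held 1 CpG in all, and that around the chr14 window 48.

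The longest stretch under peaks of all 4 libraries was 1600 bp in *Dot1l* (chr10:80253901-80255500), which encodes a histone H3 lysine 79 methyltransferase, and it held 77 CpGs. The longest null-only stretch was 9400 bp in an intron of *Smad6* (chr9:63815101-63824500) and held 173 CpGs. Null-only stretches of 7000 bp in *D19Wsu162e* and of 6900 bp in *Mtss1* followed. The longest WT-only stretch was 34400 bp at *Gm15319* on chromosome 8 (chr8:19916701-19951100), where neither null heart had a peak. All of the first 5 null-only stretches lay in introns, the others being in *Gse1* and *Ski*.

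The fate of each WT peak was then followed into the null hearts. In the first litter 2420 of 5881 WT peaks shared a base with a null peak of the litter, 41.1% (95% Clopper-Pearson interval 39.9 to 42.4%). In the second litter 1944 of 5418 did, 35.9% (34.6 to 37.2%). Intervals cover counting error only. The same null libraries covered 8.59% and 3.87% of the autosomes, so bases under WT peaks lay under null peaks 4.37 and 9.39 times as often as autosomal bases did. Against the null heart of the other litter the shares were 33.7% for WT 1 and 79.4% for WT 2, so the larger null map of the first litter met most WT 2 peaks and fewer WT 1 peaks.

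WT peaks that met no null peak were more often made of repeated sequence. Of WT 1 peaks, 3363 (57.2%) met neither null heart, and in 64.9% of those the central 32 bases occurred more than once on the autosomes. Of WT 2 peaks, 1114 (20.6%) met neither, and 42.01% of those were repeated. Among the 1882 WT 1 peaks and the 1941 WT 2 peaks that met both null hearts, the shares were 3.99% and 2.06%. At evenly spaced autosomal positions the share was 14.9%, and in every 20th null-only stretch it was 2.32%. The peaks that met both null hearts also held more CpGs, with medians of 2.17 and 2.38 per 100 bases against 1 and 1.80 for those that met neither. They lay in a gene more often, at 62.7% and 61.1% against 32.1% and 38.2%. With only WT peaks whose central 32 bases occurred once, the overlapped share rose from 41.1% to 64.3% in the first litter and from 35.9% to 39.5% in the second, an alternative added after the data were seen. Whether repeated sequence accounts for the missing overlap was not tested.

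**Figure D1:**
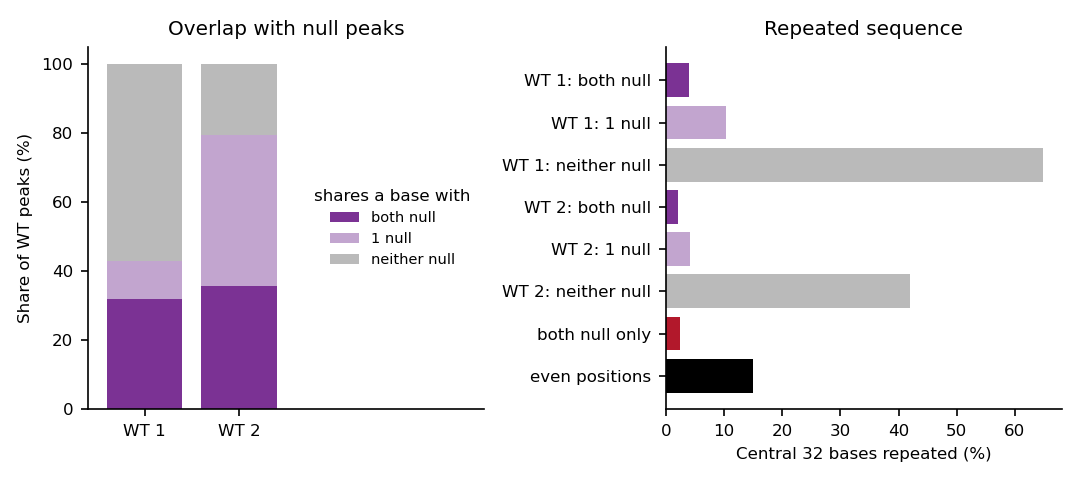
Left, share of the WT peaks (%) of each WT heart that shared a base with peaks of both null hearts, of 1 null heart or of neither. Right, share (%) of peaks or positions whose central 32 bases occur more than once on the autosomes, which reached 64.9% for WT 1 peaks and 42.01% for WT 2 peaks that met no null peak.

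By presence of any peak base, 8796 of 21418 protein coding genes (41.1%) gained 5fC peaks, with peak bases in both null hearts and in neither WT heart. Another 765 (3.57%) kept peaks in all 4 hearts, and 22 (0.103%) lost them, with bases in both WT hearts and in neither null heart. None of the 4 hearts had a base in 6619. Presence followed gene length. The median length was 25.7 kb for gained genes and 161.8 kb for kept genes, and of the 503 genes over 300 kb 42.7% were kept while 12.1% were gained. With the null libraries thinned to the number of WT peaks, the counts over all genes went from 10765 gained, 806 kept and 40 lost to 552 gained, 437 kept and 264 lost.

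Of 24731 windows of 100 kb, 11024 (44.6%) gained peaks, 1374 (5.56%) kept them and 120 (0.485%) lost them. Within 1 kb of a gene start, 3422 of 21418 protein coding genes (16%) gained peaks, 9 (0.042%) kept them and 6 (0.028%) lost them. Start sites kept included *Cdv3*, *Aqp8*, an aquaporin gene, *Adal* and *Lcmt2*. The 6 lost were *4931408C20Rik*, *Phf21a*, *Gm10800*, *Rpsa-ps10*, *Muc3* and *Smarca5*, which encodes the ISWI remodeller SNF2H. At the *Smarca5* start, WT 1 and WT 2 each had 600 bases and neither null heart had any.

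Null peaks lay closer to genes. Of covered bases, 61.1% and 65.4% lay in gene bodies in the null hearts and 45.9% and 52.9% in the WT hearts, where 42.1% of the ungapped autosomes is gene body. The difference was clearest 0.5 to 2 kb from a start of a protein coding gene. There 13.1% and 5.90% of bases were covered in the null hearts, 0.61 and 0.61 above each library's own mean on the log2 scale, and the WT hearts lay 0.33 and 0.37 below theirs, at -0.33 and -0.37. The null hearts exceeded the WT hearts by 0.94 and 0.98 in the 2 litters. Within 500 bp of a start the litters went opposite ways, by 0.18 and -0.27.

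The genotypes also differed along CpG density, at both ends. At 0 to 2 CpGs in 500 bp, 38.9% of the ungapped autosomes, null hearts were covered below their mean by more than WT hearts, with null minus WT at -1.97 and -0.998 in the 2 litters. Where 500 bp held 20 to 39 CpGs, WT hearts were covered above their mean by 2.54 and 2.41 on the log2 scale and null hearts by 0.27 and 0.31. At 40 CpGs or more, null hearts fell below their mean, at -1.10 and -1.24, and WT hearts stayed above it, at 0.70 and 0.77. In unscaled terms the null hearts still covered more of these bases, 10.3% and 4.80% against 0.714% and 0.640% at 20 to 39 CpGs. All 4 libraries were above their mean at 10 to 19 CpGs, where 30.2% and 16.4% of bases lay under null peaks.

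**Figure D2:**
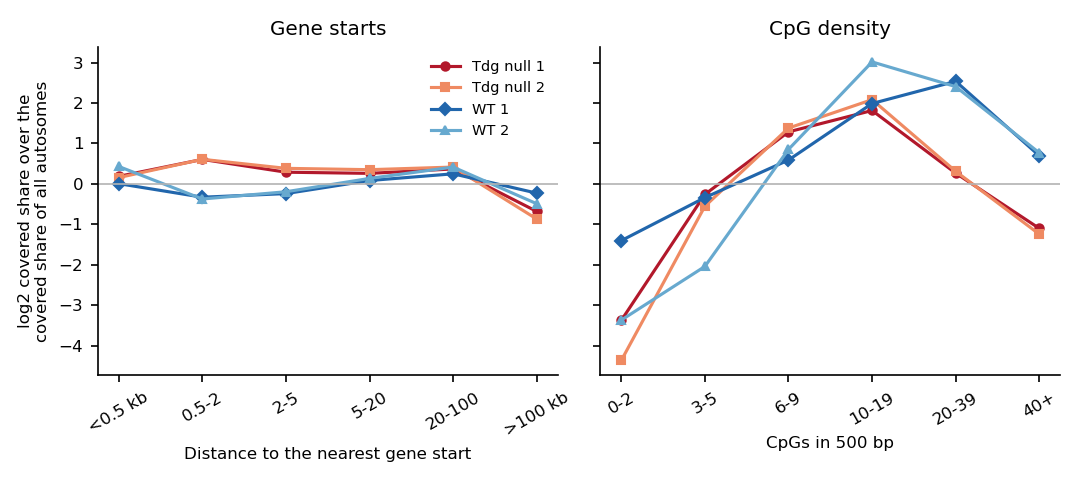
Covered share of autosomal bases in each heart library, as log2 over that library's covered share of all autosomes, by distance to the nearest start of a protein coding gene (left) and by CpGs in the surrounding 500 bp (right). Each line is 1 library. The lines of the null hearts lie above those of the WT hearts at 0.5 to 2 kb and below them at 20 or more CpGs.

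Named lists of genes were set against these numbers by how much of their summed gene bodies lay under peaks, a scale that allows for gene length. Over all protein coding genes it was 12.8% and 6.19% in the null hearts and 0.131% and 0.151% in the WT hearts. Cardiac transcription factors (33 genes found) reached 29.5% and 15.4%, and 16 of them were gained, 48.5% against 41.1% of all protein coding genes and 54.5% of those of 10 to 30 kb, where the list has its median length of 19.7 kb. The enrichment of this list over the autosomes was no trait of the heart alone. It was 1.78 and 1.99 (log2) in the null hearts, 1.496 and 1.34 in the null carcass libraries, 1.09 to 1.15 in the null hindbrain libraries and 1.95 in null liver 1. Sarcomere genes (33) reached 22.8% and 12.1%, with 24 gained and no gene without a null peak. Calcium handling and ion channel genes (28) reached 20.5% and 10.8%, and all 28 had peaks in a null heart, as did 14676 of the 21418 protein coding genes. Their median length was 146 kb, against 15.5 kb for all protein coding genes. Endothelial and endocardial genes (28) reached 26.2% and 11.4%. Outflow tract and cushion genes (40) reached 18.4% and 9.34%, and extracellular matrix genes (36) 18.999% and 9.25%. Epicardial genes (14) lay at 14.5% and 4.66%, and without *Tcf4* at 9.80% and 2.15%, an alternative added after the data were seen.

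Lists of other tissues varied. Hindbrain genes (36) lay at 1.69% and 0.649%, and 25 of 36 had no peak in any of the 4 hearts, against 30.9% of all protein coding genes and 61.0% of those up to 10 kb, where the list has its median length of 6.02 kb. The list was also below the autosomal mean in the null hindbrain libraries, by -0.57 to -0.91 on the log2 scale, and in the null carcass libraries, by -0.70 and -0.74. Skeletal muscle genes (21) lay at 11.0% and 4.57%, hepatocyte genes (17) at 15.04% and 6.25% (10.5% and 3.41% without *Prox1*), and ribosomal protein genes (42) at 12.5% and 5.90%. Erythroid genes (13) lay at 25.99% and 15.999%, and embryonic blood passes through the heart. Its part in the heart libraries was not tested. In the WT hearts the highest share of a list was 0.472%, that of the endothelial genes in WT 2.

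**Figure D3:**
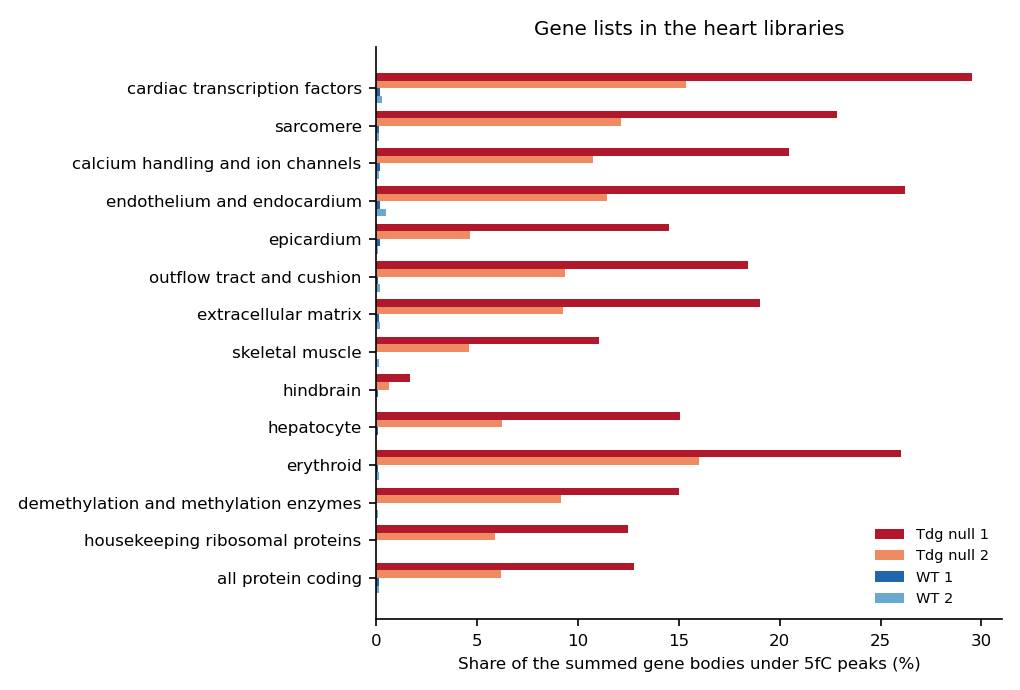
Share (%) of the summed gene bodies of each list under 5fC peaks, 1 bar for each heart library, with all protein coding genes at the bottom. Cardiac transcription factors stand at 29.5% and 15.4% in the null hearts and hindbrain genes at 1.69% and 0.649%.

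*Gata4*, a transcription factor needed for heart tube formation, had 37929 and 27000 bases under peaks in the null hearts and 0 in both WT hearts, which was 52.1% and 37.1% of its body (chr14:63817759-63890529, minus strand). It had 26 and 22 null peaks. Its scaled level was 184 and 291 bases per Mb of covered length in the null hearts, beside 8.76 in the mean of the null carcass libraries and 17.3 in that of the null hindbrain libraries. *Gata6*, its relative, had 14900 and 8800 null bases and none in WT, and *Mef2c* had 34400 and 14800 and none in WT. *Tbx5*, a factor of the left ventricle and atria, was kept, with 20500 and 8000 null bases against 500 and 800 in WT. The short genes *Nkx2-5*, *Hand1* and *Hand2*, early cardiac factors too, had no peak base in any of the 4 hearts.

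Among contractile genes, *Ttn*, which encodes titin, had 50204 and 24304 null bases against 400 and 0 in WT. *Tmod1* (tropomodulin) had 33504 and 20400 and *Actn2* (alpha-actinin) 29400 and 19400, with 0 in both WT hearts. Of genes picked after their values were seen, *Myh7*, a ventricular myosin heavy chain, was covered over 71.2% and 50.4% of its body, *Myh6* over 64.2% and 33.2% and *Tnni3*, cardiac troponin I, over 75.8% and 65.8%, with no WT base. *Nppa* and *Nppb*, which encode natriuretic peptides, each held 1 peak in each null heart, over 86.2% and 64.1% of *Nppa* and over 85.9% and 77.9% of *Nppb*. *Tnnt2*, cardiac troponin T, had 6786 and 5686 null bases and 749 in WT 2. Presence in both null hearts alone was found in 41.1% of all protein coding genes, so nothing particular to these genes is read from it.

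Of the calcium handling genes, *Cacna1c*, which encodes the pore of the L-type calcium channel, had 213949 and 121900 null bases against 1000 and 0 in WT. *Ryr2*, the calcium release channel of the sarcoplasmic reticulum, had 89500 and 52900 against 700 and 0. *Cacna1d* had 83908 and 44308 against 0 and 1300. *Jph2* (junctophilin), picked after its values were seen, was covered over 72.5% and 55.6% of its body and had no WT base.

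*Flt1*, a VEGF receptor, had 48600 and 28600 null bases and 1700 and 1600 in WT. *Erg* had 51200 and 21600 against 300 and 1300, and *Nfatc1*, a factor of valve endocardium, 57000 and 29000 against 0 and 2300. Of the outflow tract and cushion genes, *Chd7*, a remodeller, had 86300 and 61600 against 700 and 600, and *Smad3* 66900 and 40900 against 0 and 800. *Fgfr2*, whose gene model spans 3009 kb here, had 469500 and 219200 against 2500 and 4800. *Smad7*, an inhibitor of TGF-beta signalling, was picked after its values were seen and lay under peaks over 84.1% and 72.5% of its body, with no WT base.

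Of the matrix genes, *Col4a2*, a collagen of basement membranes, had 71600 and 48600 null bases and none in WT. *Ltbp1* and *Lamc1* were kept. Of the epicardial genes, *Tcf4* had 94300 and 39900 against 1600 and 0, and *Bnc2* 49355 and 6400 against 200 and 0. In *Bnc2* the 2 null hearts were far apart. Of the hindbrain genes, *Cntnap2* and *Lmx1a* were covered over 0.526% and 6.02% of their bodies in *Tdg* null 1. *Cacna1s*, *Tnnt1* and *Pax7* had the most scaled null bases of the skeletal muscle list and *Ank1*, *Bcl11a* and *Slc4a1* of the erythroid list. *Prox1* and *Hnf4a* were among the first of the hepatocyte list and *Rpl32* and *Rpl35* of the ribosomal list.

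*Tdg* itself (chr10:82092573-82113544) had 2600 and 1700 bases in the null hearts and 0 in WT. Of the genes for the oxidising enzymes, *Tet3* had 18400 and 14800 and *Tet2* 9000 and 2200, with 0 in WT, and *Tet1* had 8600 and 5700 against 0 and 500. *Dnmt3a*, a de novo methyltransferase gene, had 40200 and 20300 against none. Of the 22 enzyme genes on the list, 17 were gained (77.3%, against 41.1% of all protein coding genes and 54.5% of those of 10 to 30 kb, where the list has its median length of 22.4 kb).

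These counts move with the size of the null maps, so bases were also scaled to the covered length of each library (bases per Mb), and log2(bases per Mb + 100) was tested with limma. On this scale 1 median peak is worth 3.40 and 6.48 in the null hearts and 136 and 173 in the WT hearts, so a WT value of 0 means only that no peak was listed. Genes with a mean of at least 150 over the 4 hearts, 933 in all, were tested. A gene can pass through the genotype where it is high alone, as did those named below with 0 bases in the other genotype. So did *Muc6*, *Cldn14*, *Smo* and *Osbpl10*, whose null values all lay below the minimum. The minimum was a filter chosen after the planned one had called unchanged genes in simulated data and after counts of calls under 4 filters had been seen. In simulated data the test at this filter called no unchanged gene and none of the planted changes either, so a count of 0 does not show that genes did not change. No gene was higher in the null hearts (0% of those tested) and 1 was lower (0.107%) at an adjusted p under 0.05 by limma, and at an unadjusted p under 0.05 there were 91 higher and 119 lower. With litter as a block 6 genes were lower and none higher. Without WT 1 the counts were 215 higher and 309 lower, without WT 2 385 and 205, and without *Tdg* null 1 or *Tdg* null 2 27 and 30 higher, with none lower. The median difference over the genes tested was 0.18. No member of a list passed, of 11 channel genes, 11 outflow tract genes, 10 matrix genes, 7 cardiac transcription factors, 4 endothelial and 2 sarcomere genes tested, nor did the other listed genes tested. Over all members, tested or not, the median difference was 0.62 for channel genes, 0.40 for sarcomere genes, 0.37 for matrix genes, 0.33 for outflow tract genes, 0.17 for cardiac transcription factors and 0.15 for endothelial genes. It was 0.13 for the enzyme genes, 0.11 for skeletal muscle and for erythroid genes, 0.08 for epicardial genes, 0.03 for ribosomal genes, 0.02 for hepatocyte genes and 0 for hindbrain genes. All protein coding genes stood at 0.03, but 30.9% of these had no peak in any heart and their median length is below that of each heart list.

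*Gm15319*, a predicted gene on chromosome 8 (chr8:19933242-19958788), was the gene that was lower. It had 0 bases in both null hearts, 25547 in WT 1 and 17859 in WT 2, 100% and 69.9% of its body. A single peak of 89100 bp in WT 1 covered the gene, and a single peak of 34400 bp in WT 2 ended inside it. The difference was -6.21 ± 0.30 (SE, 2 against 2). Of 17 alternative settings 13 called the gene, and the difference ran from -7.94 to -4.67 over the 17. The gene passed the minimum of 150 through the WT hearts alone, so its call is given as a description. The locus also holds noncoding genes under the same peaks, among them *2610005L07Rik*. In the hindbrain the block was present in both genotypes. Of the 34400 bp stretch shared by the WT hearts, *Tdg* null hindbrain 1, 3 and 4 had 33900, 28000 and 34100 bases under peaks and *Tdg* null hindbrain 2 had 0, and the WT hindbrain libraries had 34200 to 34400. The carcass libraries of both genotypes had 0. Its presence thus varied with tissue and library as well as with genotype in heart, and these cannot be told apart with 2 hearts a genotype.

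Among protein coding genes whose groups did not overlap, taking the first of genes that overlap each other, the 10 largest positive differences belonged to *Trio*, *Tanc1*, *Sgms1*, *Prkag2*, *Cacna1c*, *Kank1*, *Casz1*, *Sept9*, *Maml3* and *Baz2b*. None passed the test. *Trio*, which encodes a guanine nucleotide exchange factor, had 644 and 836 bases per Mb in the null hearts and 0 in both WT hearts, a difference of 3.06 ± 0.32 (SE; adjusted p = 0.0912, limma). *Tanc1*, a scaffold gene, had 569 and 746 against 0. *Prkag2*, a regulatory subunit of AMP-activated kinase, had 445 and 697 against 0. *Casz1*, a zinc finger factor of heart development, had 399 and 552 against 0, over 54.5% and 34.0% of its body. *Cacna1c* had 1040 and 1316 against 339 and 0, a difference of 2.60 ± 0.82 (adjusted p = 0.191, limma). A difference from 0 depends on the pseudocount and is no fold change. *Trio* and the other genes with 0 in both WT hearts passed the minimum through the null hearts alone. Their direction was thus set by the filter, so the adjusted p of *Trio* cannot test it and the differences are given as a description. WT values that are both 0 show no spread between WT hearts.

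After *Gm15319* the largest negative differences by the same rule were those of *C130026I21Rik*, *Gm13242*, *2610305D13Rik*, *Zfp600*, *Muc6*, *Cldn14*, *Cyp2c29*, *Smo* and *Osbpl10*, of which none passed. The rule left out noncoding genes, among them *2610005L07Rik* at the *Gm15319* locus (-7.58), and *Gm13225* (-3.08), which overlaps *Gm13242*. *Gm13242*, *2610305D13Rik* and *Zfp600* lie within a few Mb of each other on chromosome 4, had 0 null bases, and had 4300, 3400 and 2300 bases in WT 1 and 2400, 1200 and 1000 in WT 2. *Smo*, the signal transducer of the Hedgehog pathway, was kept, with 3000 and 1600 null bases against 1300 and 1700, or 14.6 and 17.3 bases per Mb against 441 and 588 (difference -2.40 ± 0.33, adjusted p = 0.0912, limma). *Osbpl10*, an oxysterol-binding protein gene, had 139 and 123 bases per Mb against 1120 and 1107. For *Smo* and *Osbpl10* the WT hearts had fewer bases than the null heart of their litter, or about as many, but a larger share of their own peaks. Both genes passed the minimum through the WT hearts alone, as did *Muc6* and *Cldn14*. The direction of these genes was thus set by the filter, so the adjusted p of *Smo* cannot test it and the differences are given as a description.

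**Figure D4:**
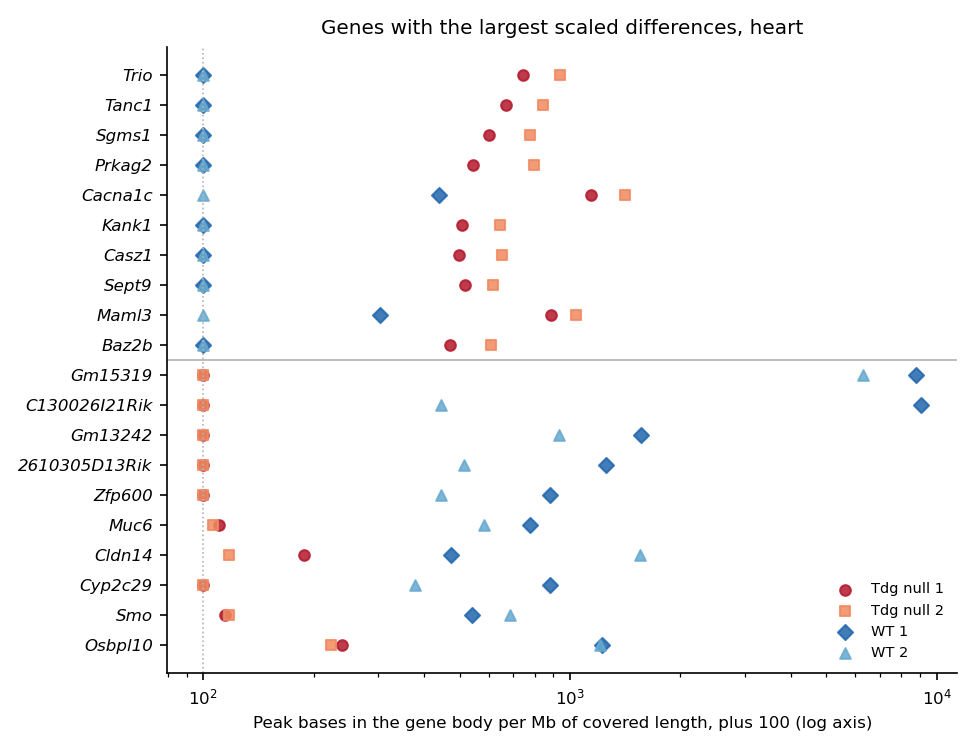
Peak bases in the gene body per Mb of each library's covered length, plus the pseudocount of 100, on a log axis, for the 10 protein coding genes with the largest positive and the 10 with the largest negative null minus WT difference among those whose groups did not overlap, overlapping genes shown once. Each point is 1 heart library. The dotted line marks 0 bases. *Trio* stands at 0 in both WT hearts and *Gm15319* at 0 in both null hearts.

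Among windows of 100 kb with the same minimum, none of 1149 was higher in the null hearts (0%) and 47 were lower (4.09%), with 16 higher and 298 lower at an unadjusted p under 0.05 (limma). The median difference of all tested windows was -0.50, and 1 median WT peak in a window is worth 136 or 173, close to the minimum of 150. With litter as a block 11 were lower, and none with the null libraries thinned to the number of WT peaks, in windows of 1 Mb, or without *Tdg* null 1 or *Tdg* null 2. Without WT 1 there were 692 lower and 114 higher, and without WT 2 417 lower and 303 higher. All 47 passed the minimum through the WT hearts, at 441 to 1629 bases per Mb in WT 1 and 415 to 1452 in WT 2, against at most 102 and 119 in the null hearts, so their direction was set by the filter and their count is a description. The median of all tested windows went to -0.81, -1.47 and -3.13 as the minimum was raised to 200, 300 and 400, and the planned filter gave 9141 higher and 591 lower. Of the 47, 17 had no base in either null heart, 22 had bases in both, and 14 had more bases in the null than in the WT heart of both litters. All 47 had bases in at least 1 of 7 other null libraries, and 42 in at least 4 of 8 other WT libraries.

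The 5 largest of these windows lay on chromosomes 6, 2, 8, 14 and 5. The window chr6:67600001-67700000, without a protein coding gene, had 4800 and 2800 WT bases and 300 and 0 null bases, a difference of -3.75 ± 0.32 (SE). The window chr2:181600001-181700000 holds *Polr3k*, a subunit of RNA polymerase III, and had 3800 and 3000 WT bases against 700 and 0. The largest positive windows, none of which passed, held *Gse1*, *Pitpnm2*, *Col4a1* and *Col4a2*, *Lrrfip1*, and *Rbm20*, a splicing factor of titin. The *Col4a1* and *Col4a2* window had 62600 and 43600 null bases and none in WT.

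Whether the genotype difference of the heart was that of other tissues was tested per gene as an interaction. Against carcass, 855 genes were tested. In 63 (7.37%) the null minus WT difference was larger in heart and in 27 (3.16%) smaller (limma, adjusted p under 0.05). With embryo as a random block the counts were 64 and 27. Of the 63, 53 had 0 bases in both WT hearts, which held 5881 and 5418 peaks where the WT carcass libraries held 41464 and 34657. These calls moved with single libraries, a check added after the data were seen. Without *Tdg* null 1, *Tdg* null 2, null carcass 1, null carcass 2 or WT carcass 1 the larger calls fell to between 0 and 1, without WT carcass 2 to 22, and without WT heart 1 or 2 they came to 254 and 424. The smaller calls fell to between 4 and 7 without any null or carcass library, and came to 213 and 140 without WT heart 1 or 2.

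Among the 63 were *Tanc1*, *Kank1*, *Tgfbr3*, *Ubash3b*, *Trio*, *Prkag2*, *Ror1*, *Epb4.1l2*, *Mgmt* and *Col4a2*, the first 10 by size. *Tgfbr3*, a TGF-beta coreceptor, had 344 and 390 bases per Mb in the null hearts and 0 in both WT hearts, beside carcass means of 286 in null and 428 in WT. Its heart difference exceeded that of carcass by 2.67 ± 0.26 (SE; adjusted p = 0.00668, limma). A WT heart value of 0 means only that no peak was listed, so this call is given as a description. Of the listed genes tested here, 2 of 6 cardiac transcription factors (*Zfpm1*, *Meis2*) were called in either direction. So were 3 of 10 outflow tract genes (*Tgfbr2*, *Tgfbr3*, *Acvr1*) and 2 of 9 matrix genes (*Col4a2*, *Fbn1*). Calls were made in 0 of 10 channel, 0 of 4 endothelial, 0 of 2 sarcomere and 0 of 2 epicardial genes. Of all 855 genes tested, 7.37% were called larger and 3.16% smaller, and no list was tested against these shares. Among the 27, the first 10 protein coding genes by size were *Gm15319*, *Dot1l*, *Dcc*, *Galk2*, *Tgfbr2*, *Zfp534*, *Cadps2*, *Ctnnd2*, *Eftud1* and *Zfpm1*. *Tgfbr2*, a signalling receptor for TGF-beta, had 115 and 87.4 bases per Mb in the null hearts against 373 and 588 in WT, beside carcass means of 124 in null and 54.3 in WT. *Zfpm1*, whose intron is shown above, had 197 and 360 against 645 and 519, beside carcass means of 86.5 and 0.

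Against hindbrain, none of 855 genes was larger (0%) or smaller (0%) in heart at an adjusted p under 0.05 by limma, and 57 and 20 were at an unadjusted p under 0.05. That does not show that heart and hindbrain differ alike. The 2 WT hindbrain libraries with the fewest peaks held 1507 and 1515.

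**Figure D5:**
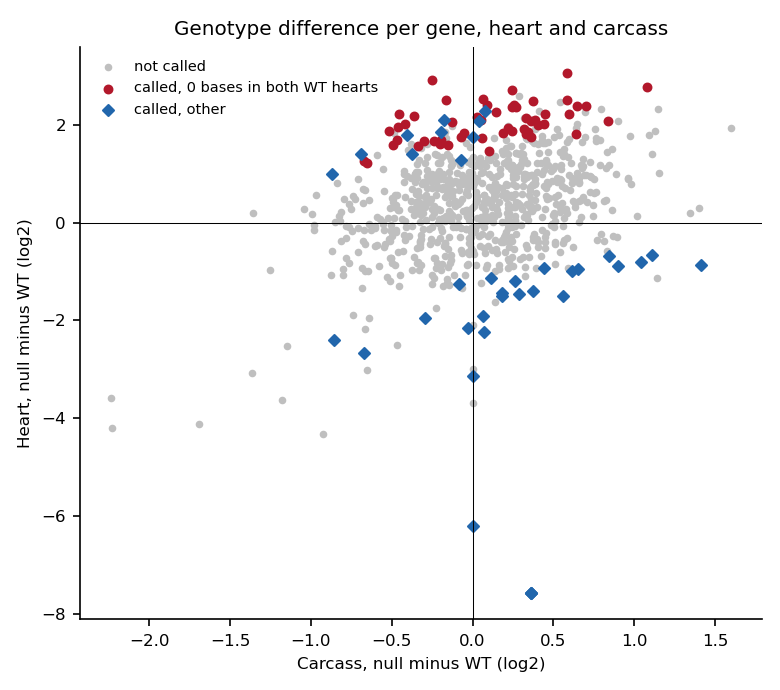
Null minus WT difference of log2(bases per Mb + 100) in heart (vertical) and carcass (horizontal) for the 855 genes tested. Red points are called genes with 0 bases in both WT hearts, blue diamonds other called genes and grey points the rest and red points lie above 0 on the vertical axis.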

How the data were processed

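The 4 heart libraries (2 *Tdg* null, 2 WT) were analysed from the authors' peak lists. Per the methods of the study, reads were trimmed with Trim Galore, aligned to NCBIM37 (mm9) with Bowtie2, and peaks were called in each pull-down separately by MACS in SeqMonk at a cutoff of 1e-05 on the p-value, with fragments taken as 200 bp. The use of input and the removal of duplicates are not given in the sources used here. The deposited files hold start and end of each peak on a grid of 100 bp and no other value, so the unit here is bases under peaks and the depth is unknown. With 2 libraries a genotype, precision is set by the spread between libraries.

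Autosomal peak bases were counted per gene body (gene annotation of the same build, 34653 genes) and per window of 100 kb, and scaled to each library's covered length. log2(bases per Mb + 100) was tested with limma 3.58.1 in R 4.3.3 (empirical Bayes with trend, Benjamini-Hochberg adjustment, threshold 0.05), over features with a mean of at least 150 bases per Mb. The planned filter, bases in at least 2 libraries, called unchanged features in simulated data and was replaced. At the filter used, planted changes were not called either. Counts of calls at 150, 200, 300 and 400 had been seen when 150 was taken for its results on simulated data. It gave the fewest lower genes of the 4. The members and lists were chosen with earlier results of these data known. The named genes were the 10 protein coding genes with the largest difference in each direction whose groups did not overlap (called genes first, of genes that overlap each other only the first, symbols that match 1 gene), *Tdg*, *Tet1*, *Tet2*, *Tet3*, *Gata4*, and for each list the 3 genes with the highest scaled null bases. Some of these are not reported here. Windows and stretches took the first 5. No sequence of chromosome 18 was printed. The pairs called litters were assigned, since the titles of the heart libraries name no litter. The deviations of null and WT within these pairs correlated at r = -0.092 across 933 genes, which are not independent replicates. P-values measure the spread between embryos. Alternatives covered the pseudocount, filters, scaling, peak length, thinning, flanks, block and left-out libraries.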

Additional observations from a re-analysis of the deposited data

Results flagged for a closer look

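Against carcass of the same embryos, the null minus WT difference in heart was larger in 63 genes and smaller in 27 by the interaction test of limma. The heart difference exceeded that of carcass by 3.16 in *Tanc1*, 2.68 in *Kank1*, 2.67 in *Tgfbr3*, 2.55 in *Ubash3b* and 2.48 in *Trio*, on the scale of log2(bases per Mb + 100). The interaction was -6.21 in *Gm15319*, -2.31 in *Dot1l*, -2.27 in *Dcc*, -2.13 in *Galk2* and -2.07 in *Tgfbr2*. Of the 63 genes, 53 had 0 bases in both WT hearts, and the count fell to 0 or 1 without any 1 of 5 of the 8 libraries. The part of the small WT heart maps in these calls was not tested, and the calls are given as a description.

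Outside the autosomes, which the comparison left out, *Tdg* null 1 had 3048 peaks and *Tdg* null 2 had 1132, against 550 in WT 1 and 199 in WT 2.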

How the results depend on the processing

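Each setting below gives genes higher, genes lower, then windows higher and windows lower, where run, against 0, 1, 0 and 47 as reported. The planned filter gave 8917, 245, 9141 and 591, and no filter gave 2637 and 99 genes. Simulated unchanged features were also called under the planned filter. Means of at least 200, 300 and 400 gave 4, 4 and 7 lower genes with no higher one, and 63, 56 and 23 lower windows. A pseudocount of 30 gave 4 lower genes and 23 lower windows, and a pseudocount of 300 gave 0 and 26. Scaling to gene-body bases gave 0 lower genes and 0 lower windows, and midpoints gave 0 lower genes. Peaks of at least 600 bp gave 138 higher and 131 lower genes and 56 lower windows. Thinning gave 4 lower genes and 0 lower windows, flanks of 10 kb gave 9 and 33 genes, and all tissues together gave 40 and 57. The replicate block (litter) gave 6 lower genes and 11 lower windows, all 11 among the 47. Windows of 1 Mb gave 0 lower. Leaving out each library in turn gave 27 to 385 genes higher, 0 to 309 lower, 0 to 303 windows higher and 0 to 692 lower. Leaving out a WT or a null library leaves that group with 1 library, assumed to vary like the other group. The cause of the other changes was not tested.

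Thinning the null libraries gave 552 gained, 437 kept and 264 lost genes, peaks of at least 600 bp gave 265 kept, and flanks gave 17675 gained and 87 lost. The share of WT peaks met by null peaks was 33.7% and 79.4% with the other litter, 45.2% and 39.2% with peaks of at least 600 bp, 1.11% and 1.55% after thinning, and 64.3% and 39.5% with unrepeated WT peaks. The log2 ratio of the number of peaks went from 4.97 to 6.04 with peaks of at least 600 bp. Interaction counts against carcass ran from 0 to 424 larger and 4 to 213 smaller over the left-out libraries. The 20 named genes were chosen for large differences without overlap in the same 4 libraries, so their direction was largely set by that choice. Of 327 values of these genes under other settings, none reversed, 116 passed the threshold only there and 4 lost it. The cause was not tested. No depth is known, so a WT 0 could not be told from a missed peak.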
